A study of Homo sapiens with 6 samples.

Results

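A set of 10 genes of blood stem cell transcription control was followed after SPINK2 silencing in FUJIOKA cells. They were taken by gene symbol: MECOM, PRDM16, GATA2, ERG, HLF, TAL1, LYL1, LMO2, FLI1 and ZFPM1, among the 63236 genes in the deposited table. MECOM RNA fell by 85% and ZFPM1 RNA fell by 39.8%, HLF RNA was 32.7% higher, and ERG did not pass the test. TAL1 was close to the limit of detection, PRDM16 was listed at 0, and 4 abundant members, GATA2, LYL1, LMO2 and FLI1, could be given as a level only.

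FUJIOKA is a human acute myeloid leukaemia line which the study uses as a model of complex karyotype disease. Bulk RNA was sequenced in 3 libraries expressing a scrambled control shRNA (shNEG) and 3 expressing an shRNA against SPINK2 (shSPINK2). Both kinds of shRNA were carried by the same doxycycline-inducible lentiviral vector, so all libraries come from transduced cells of 1 line. Transduced cells were selected with puromycin. The time on doxycycline before RNA was taken is not given in the sources used here, and the labels name 2 SPINK2 shRNAs where the methods name 1, without saying which of them each library carries. The labels do not say that the libraries came from separate cultures, so p-values measure the spread between these libraries, which may be technical.

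Blood stem cells are kept in their state by a set of DNA-binding proteins that occupy many of the same enhancers. TAL1 and LYL1 are basic helix-loop-helix factors that pair with E proteins and are joined to GATA2 by the bridging protein LMO2, while ERG and FLI1 bind ETS motifs beside them. MECOM, which yields the zinc finger protein EVI1 and a longer form with a PR domain, and PRDM16, its close relative, sustain stem cell self-renewal, HLF is a PAR bZIP factor of the most immature cells, and ZFPM1 (FOG1) is the cofactor through which GATA factors act in red cell and platelet precursors.

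The shRNA targets are shown first because the libraries differ by them. Each is 21 bases of SPINK2 coding sequence, written 5′ to 3′ on the mRNA, and capitals mark the bases that pair with guide positions 2 to 8.

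shRNA1: tcagggaaggtggTCATAATa
shRNA2: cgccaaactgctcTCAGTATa

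In the canonical SPINK2 transcript of GENCODE release 44 (GRCh38, minus strand of chromosome 4), the shRNA1 target joins exons 3 and 4 of 4, between genome positions 56810168 and 56811688. The shRNA2 target joins exons 2 and 3, between 56811776 and 56820537. Both matched that transcript over all 21 bases. The capitalised word TCATAAT occurs in 17.2% and TCAGTAT in 22.5% of 12991 canonical transcripts of protein-coding genes with a mean of at least 5. Among the 10 genes, both words were found in ERG, TCATAAT in its 3′ UTR and TCAGTAT in its coding sequence, and TCAGTAT was also found in the 3′ UTR of FLI1. Neither word was found in the canonical transcripts of MECOM, ZFPM1 or HLF. The longest run that MECOM shares with a target was 7 bases for shRNA1 and 8 bases for shRNA2, and 89.5% and 51.9% of the transcripts hold a run as long. Among the 10 genes the longest runs, of 9 bases, were in ERG and ZFPM1 for shRNA1 and in PRDM16 and LMO2 for shRNA2.

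A further word, GCTCTCA (bases 10 to 16 of the shRNA2 target), was looked at because earlier results of these data had pointed to it. It is shown with capitals in the target and in MECOM.

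shRNA2 target: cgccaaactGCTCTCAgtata
MECOM exon: ggcacattcGCTCTCAgcatg

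The MECOM stretch lies in coding exon 7 of 17 at chr3:169121161-169121181, minus strand of GRCh38. The base after the word, g, is the same in both lines, so the run shared there is 8 bases. That is as long as the longest run given above for MECOM and shRNA2, and 51.9% of the transcripts hold a run as long. Across from TCAGTAT, the word that pairs with guide positions 2 to 8, MECOM reads TCAGCAT, which differs at a single base. The word was also in the canonical transcripts of PRDM16, ERG and TAL1 and in none of the other 6 genes. The marked word alone, without the g after it, occurs in 22.3% of the 12991 transcripts. The word was thus present in MECOM, which fell, and in ERG, which did not, and absent from ZFPM1, which fell. Whether it has a part in any value was not tested.

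The levels of the 10 genes spanned several orders of magnitude. For each gene the authors' mean over all 6 libraries, in reads divided by library size factors, was divided by the exonic length in GENCODE release 44 so that genes could be ranked. These means carry no error for the 4 genes without recovered reads. LMO2, the bridge of the TAL1 complex, stood highest at 3576 normalized reads per kilobase, above 97% of 12991 protein-coding genes. LYL1 followed at 1624 and FLI1 at 1113, above 92.2% and 88% of these genes. GATA2 was near the middle at 209, above 51.3% of them. GATA2 thus lay well below the 3 genes that head the order.

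The other members were low. ZFPM1 stood at 25.8 normalized reads per kilobase, HLF at 16.5, ERG at 6.40 and MECOM at 1.63, and TAL1 at 0.577. Related genes were therefore unequal: FLI1 was 174-fold above ERG among the ETS members, and LYL1 was 2812-fold above TAL1 among the basic helix-loop-helix members. Among neighbours in the order, the smallest ratios were 1.46 for LYL1 over FLI1 and 1.57 for ZFPM1 over HLF. No spread over libraries is known for the 4 abundant genes. For the others the order could be read within each group. In shNEG, ZFPM1 stood at 32.2 ± 1.68 normalized reads per kilobase and HLF at 14.2 ± 1.34 (SD, n = 3), whereas in shSPINK2 they stood at 19.4 ± 1.65 and 18.8 ± 1.75, which did not differ beyond their spread. The spreads of ZFPM1 and HLF lean on a recovery rule, given below, that favours like replicates. MECOM stood at 2.84 ± 0.719 per kilobase in shNEG, above TAL1 at 0.467 ± 0.101, and at 0.427 ± 0.103 in shSPINK2, inside the range of TAL1 there, 0 to 1.22. PRDM16, the relative of MECOM, was listed at 0. A total of 3 reads over the 6 libraries, the limit that a count of 0 allows, would be a mean of 0.5 normalized reads, or 0.0512 per kilobase.

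**Figure D1:**
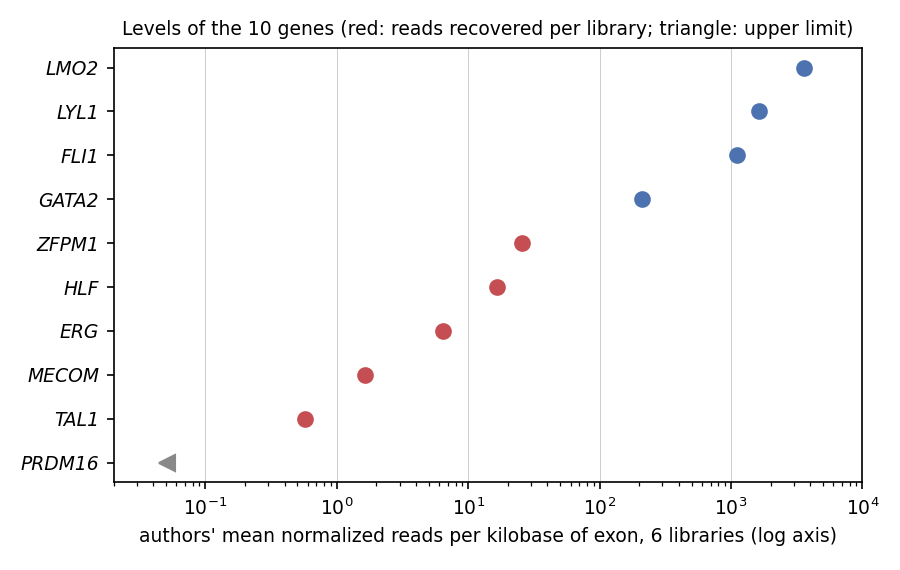
Mean normalized reads per kilobase of exon over 6 libraries (log axis) for the 10 genes, with genes whose reads per library were recovered in red and the others in blue. LMO2, LYL1 and FLI1 lie together at the top from 3576 to 1113, TAL1 lies at 0.577, and the triangle marks the upper limit for PRDM16.

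These genes are spread over the genome. In GRCh38 coordinates of GENCODE release 44, MECOM (ENSG00000085276.17) occupies chr3:169083499-169663775 on the minus strand and GATA2 (ENSG00000179348.11) lies on the same chromosome at chr3:128479427-128493201. ZFPM1 (ENSG00000179588.8) is at chr16:88453280-88537031 and HLF (ENSG00000108924.13) at chr17:55264960-55325187, both on the plus strand. ERG (ENSG00000157554.18) is at chr21:38380027-38661780 and TAL1 (ENSG00000162367.11) at chr1:47216290-47232225, both on the minus strand. LMO2 (ENSG00000135363.11, chr11:33858576-33892076, minus) and FLI1 (ENSG00000151702.16, chr11:128686535-128813267, plus) share chromosome 11. LYL1 (ENSG00000104903.4) is at chr19:13099033-13103161 on the minus strand and PRDM16 (ENSG00000142611.16) at chr1:3069168-3438621 on the plus strand. Exons of FLI1, GATA2 and TAL1 overlap long non-coding genes of the opposite strand, by 162 bases for SENCR and 167 bases for an unnamed gene listed at 0 in FLI1, 78 bases for GATA2-AS1 and 845 bases for another unnamed gene at TAL1. The strand setting of the counting is not given in the sources used here. The exons of MECOM, ERG, HLF and ZFPM1 share no base with another gene.

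The myeloid identity of the line was readable in the same table. PTPRC (CD45) had a mean of 9179 normalized reads, CD33 7777, the myeloid factor SPI1 10672 and myeloperoxidase MPO 1844. The stem cell markers CD34 and KIT were low, at 19.6 and 0.666, but other stem cell markers were not. Of 22 stem cell surface and marker genes, 10 had a mean under 5 and 8 a mean of 200 or more. FLT3 had 2809 and PROCR 1339. Of 12 erythroid markers, 7 were listed at 0 and 10 had a mean under 5. Of 8 endothelial markers 5 were under 5, with CDH5 and KDR at 0, whereas EGFL7 had a mean of 1078 and PECAM1 of 98.9. Likewise 5 of 8 megakaryocyte markers were under 5. In bulk RNA, fewer cells of a type and less RNA per cell cannot be told apart.

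Values per library could be had for genes with a mean below 200, where whole reads were recovered from the 15 digits of the deposited mean. The 6 size factors ran from 0.985 to 1.033, so reads and normalized reads are nearly the same number. The shNEG libraries are called A, B and C and the shSPINK2 libraries D, E and F, and these letters carry no replicate number. SPINK2, the gene silenced, had 56, 63 and 53 reads in A, B and C and 7, 9 and 6 reads in D, E and F. It fell by 87.3%, with a log2 fold change of -2.91 (SE 0.27, adjusted p = 3.92e-12 by limma over 7566 genes, n = 3 per group). With 3 libraries per group an exact permutation test of a single gene cannot give a p below 0.1, which is what SPINK2 gave.

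MECOM showed the largest log2 fold change of the 4 members tested. It had 22, 34 and 23 reads in A, B and C and 4, 5 and 3 reads in D, E and F, a total of 79 against 12. Every shSPINK2 library was below every shNEG library, with a gap of 17.0 normalized reads between the groups. The mean went from 26.3 ± 6.66 to 3.96 ± 0.957 normalized reads (SD, n = 3 libraries per group) and fell by 85%. On the log2 scale with 0.5 added to each value, the fold change was -2.58 (SE 0.36, 95% normal interval -3.30 to -1.87) and the adjusted p from limma was 2.85e-07. The exact permutation test gave p = 0.1, its smallest possible value.

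MECOM was 7th by fold change and 80th by p-value among the 773 genes called lower in shSPINK2, which come from the tested genes with a mean of 5 to 200. The 10486 genes with a mean of 200 or more were not compared. With few reads in libraries D, E and F the size of the fold rests on small numbers. Leaving out any 1 library left the log2 fold change between -2.74 and -2.39. Reads were counted per gene, so EVI1 and the longer MECOM form cannot be told apart here.

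ZFPM1 also fell. It had 211, 192 and 193 reads in A, B and C and 128, 109 and 125 reads in D, E and F. The groups were separated by 65.0 normalized reads. These reads were recovered by a rule, given with HLF below, that favours like replicates. The spread within groups, the SE and the p-value of ZFPM1 therefore lean on that rule. The mean went from 198 ± 10.3 to 120 ± 10.1 normalized reads (SD, n = 3). It fell by 39.8%, with a log2 fold change of -0.73 (SE 0.11, 95% interval -0.94 to -0.52, adjusted p = 5.98e-07 by limma). By fold change it was 459th among these 773 genes.

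HLF moved the other way. It had 104, 86 and 98 reads in A, B and C and 138, 136 and 112 reads in D, E and F. The lowest shSPINK2 library, F, was 9.95 normalized reads above the highest shNEG library, A. The mean went from 95.9 ± 9.08 to 127 ± 11.8 normalized reads (SD, n = 3), a rise of 32.7%, with a log2 fold change of 0.41 (SE 0.13, 95% interval 0.16 to 0.66, adjusted p = 0.0162 by limma). The call was lost without library B, D or E, at adjusted p of 0.0908, 0.0678 and 0.0711, so it rests on those 3. At the means of HLF and ZFPM1 several combinations of whole reads could give the deposited mean. The one kept had a spread within groups of 3.92 for HLF and 2.80 for ZFPM1, as a sum of squared deviations over the group mean, where the next had 100 and 56.8 and the limit was 19.9. These 2 genes were thus recovered by a rule that favours like replicates.

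ERG was higher in shSPINK2 without passing the test. It had 40, 41 and 40 reads in A, B and C and 57, 51 and 63 reads in D, E and F. The shNEG libraries were almost equal, and all shSPINK2 libraries lay above them. The mean was 40.3 ± 0.587 against 56.5 ± 6.81 normalized reads (SD, n = 3), with a log2 fold change of 0.48 (SE 0.19, 95% interval 0.11 to 0.84) and an adjusted p of 0.0591 by limma. It passed at an adjusted p of 0.0469 when only genes with a mean of at least 10 were tested. Under every other alternative of the fit ERG did not pass. Its adjusted p by limma then ran from 0.0566, with no size factor, to 0.219, without library F.

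TAL1 was too low to compare. It had 3, 2 and 3 reads in A, B and C and 5, 7 and 0 reads in D, E and F, 8 reads against 12 in all. The groups overlapped, with the highest and the lowest library both in shSPINK2, and the exact permutation test gave p = 1. A difference was not detectable at this depth.

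**Figure D2:**
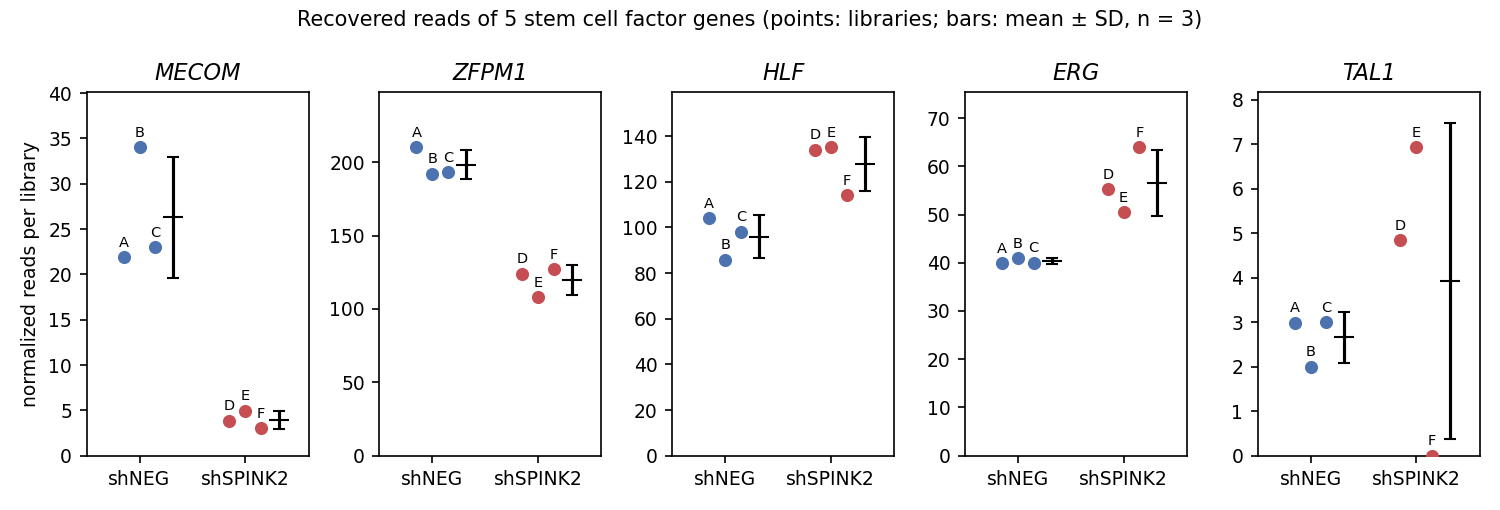
Normalized reads per library for MECOM, ZFPM1, HLF, ERG and TAL1, with points lettered by library and bars for the mean ± SD of 3 libraries, each panel on its own axis from 0. The groups are apart for the first 4 genes and overlap for TAL1, where library F has 0 reads.

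Of the 4 members tested, 2 were called lower and 1 higher at an adjusted p under 0.05, where 10.2% and 11.8% of the 7566 tested genes were called in these directions. MECOM also passed an absolute log2 fold change of 1 in the lower direction, as 3.5% of the tested genes did, and none passed a log2 fold change of 1 in the higher direction, as 3.58% did. All 4 had groups that did not overlap, beside 35% of the tested genes. For HLF and ZFPM1 the recovery rule favours like replicates and so favours groups that stand apart. The median of the absolute log2 fold change over the tested genes was 0.37, below that of all 4 members. With 4 genes these counts describe the members only.

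**Figure D3:**
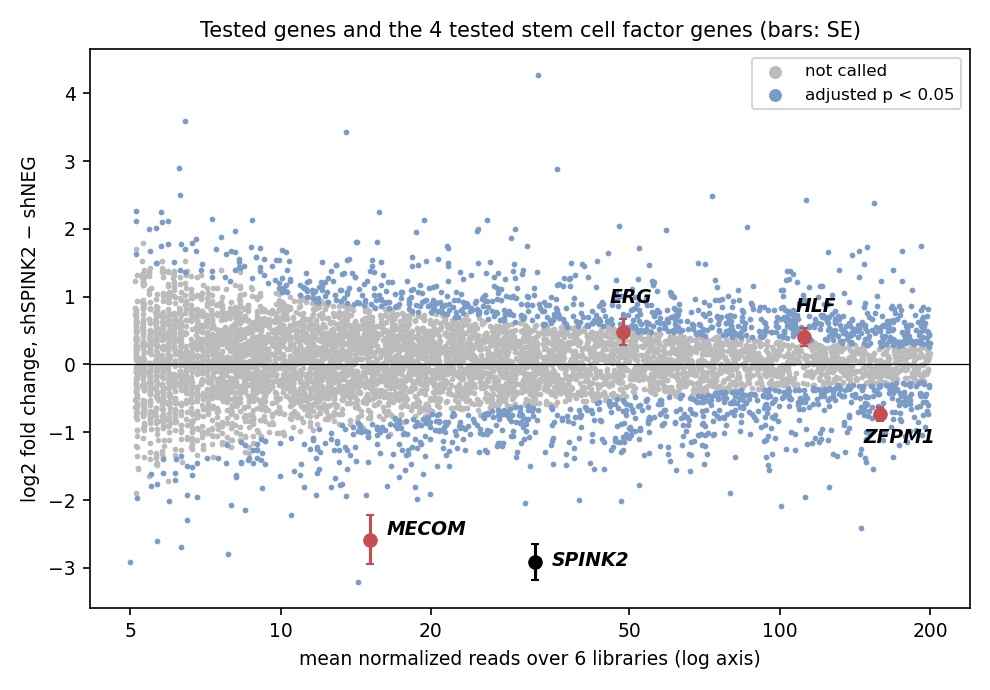
Log2 fold change of shSPINK2 minus shNEG against the mean normalized reads (log axis) for the 7566 tested genes, with genes at an adjusted p under 0.05 in blue, the 4 tested members in red and SPINK2 in black with bars for the SE. MECOM lies at -2.58 near the lower edge of the cloud, ZFPM1 at -0.73, and HLF and ERG at 0.41 and 0.48 above 0.

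GATA2, LYL1, LMO2 and FLI1 had means of 1028, 5065, 10355 and 8935 normalized reads, above the range in which reads could be recovered, and were not compared between groups here. No direction is given for them.

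The promoters of the members that fell are shown to place their starts. They are 300 bases of RefSeq sequence (GRCh38.p14) spanning an annotated start, written 5′ to 3′ on the strand of the gene. Capitals mark matches to 5 words searched on both strands: AGATAA of GATA factors, CCGGAA of ETS factors, CAGCTG and CAGGTG of E-boxes, and TGTGGT of RUNX factors. MECOM has 3 such starts, of which the outermost and innermost are given. The start between them, chr3:169147422-169147721, held a single RUNX word and is not printed.

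MECOM chr3:169663663-169663962, minus strand: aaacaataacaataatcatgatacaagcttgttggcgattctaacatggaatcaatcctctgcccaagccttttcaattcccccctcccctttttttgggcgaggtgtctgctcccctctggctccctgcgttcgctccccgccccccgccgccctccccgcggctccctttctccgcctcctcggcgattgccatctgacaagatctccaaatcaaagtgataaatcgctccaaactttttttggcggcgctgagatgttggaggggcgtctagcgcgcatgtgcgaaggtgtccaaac
MECOM chr3:169146490-169146789, minus strand: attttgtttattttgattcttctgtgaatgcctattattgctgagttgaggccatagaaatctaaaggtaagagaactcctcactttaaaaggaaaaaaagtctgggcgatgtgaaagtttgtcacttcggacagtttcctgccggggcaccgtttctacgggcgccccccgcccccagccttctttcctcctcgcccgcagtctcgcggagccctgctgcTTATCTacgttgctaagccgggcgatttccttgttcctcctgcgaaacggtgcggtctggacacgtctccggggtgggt
ZFPM1 chr16:88453030-88453329, plus strand: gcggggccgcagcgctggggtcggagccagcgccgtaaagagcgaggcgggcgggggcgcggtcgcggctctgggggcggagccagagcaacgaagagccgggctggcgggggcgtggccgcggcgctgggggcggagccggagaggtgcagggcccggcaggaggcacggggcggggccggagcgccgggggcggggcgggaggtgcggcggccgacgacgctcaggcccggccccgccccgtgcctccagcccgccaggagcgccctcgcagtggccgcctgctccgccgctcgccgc

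The outer MECOM promoter, which begins the longer form, held none of the 5 words. The inner one held a single GATA word, written as its reverse complement. The ZFPM1 promoter held none and had a GC content of 83%, against 54.7% for the outer MECOM promoter. Of 35116 promoters of this length, 10.3% held the GATA word, 17.2% the ETS word, 17.9% and 20.6% the E-box words and 13.1% the RUNX word. Promoters of LMO2, FLI1 and PRDM16 were not used here.

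Genes that work with these factors were followed in 6 lists of 97 genes, 96 of them in the table. Most were abundant, 58 having a mean of 200 or more. Of the 13 that could be tested, 5 were called lower and none higher by limma, 38.5% beside the 22% of all tested genes. Their median on the log2 scale was -0.14, beside 0.05 over all tested genes. SPINK2, the gene silenced, is one of the 5 and is counted in this share and median, so its fall comes from the design. The lists were also chosen with earlier results of these data known, so the share describes these 13 genes only.

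ID1 and ID3, both called lower, are helix-loop-helix proteins without a basic region that bind E proteins and keep them from pairing with TAL1 or LYL1. ID2, in the same list, had a mean of 2572 normalized reads, against 168 for ID1 and 130 for ID3, and was not compared between groups. ID3 had 182, 177 and 202 reads in A, B and C and 71, 66 and 86 in D, E and F. It fell by 1.34 on the log2 scale (SE 0.13, adjusted p = 9.87e-12 by limma), with every shSPINK2 library far below the controls. ID1 had 196, 204 and 189 reads against 128, 133 and 162, and its log2 fold change was -0.50 (SE 0.11, adjusted p = 0.000397 by limma). The reads of ID1 and ID3 were also recovered by the rule that favours like replicates. The other tested gene of the 22 complex partners, the erythroid factor KLF1, had a log2 fold change of 0.32 and did not pass (adjusted p = 0.506 by limma).

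Other partners were given as levels. The E proteins TCF3 and TCF12 had means of 7635 and 4018 normalized reads, LDB1, which binds LMO2, had 2417, and RUNX1 and its subunit CBFB had 17309 and 5873. GATA1, the main partner of ZFPM1 in red cell precursors, had a mean of 0.984, and GFI1B, a repressor of the same lineage, had 2.65.

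Among surface markers, CD34 fell with MECOM. It had 31, 22 and 23 reads in A, B and C and 18, 13 and 11 in D, E and F, so that the groups stood apart at low counts. The log2 fold change was -0.86 (SE 0.28, adjusted p = 0.0219 by limma), and the call was lost without library A, E or F, at adjusted p of 0.131, 0.0521 and 0.0862. TEK, the angiopoietin receptor, and ADGRG1 (GPR56) had log2 fold changes of -0.19 and 0.61 and did not pass.

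Of the ETS family, 14 of 17 genes had a mean of 200 or more and the 1 tested was ETV7. It had 238, 199 and 195 reads in A, B and C and 137, 116 and 140 in D, E and F. It fell by 0.69 on the log2 scale (SE 0.11, adjusted p = 1.73e-06 by limma), all shSPINK2 libraries being below all controls. The reads of ETV7 were also recovered by the rule that favours like replicates. ERG, the ETS member described above, had the opposite sign. Among the PRDM relatives of MECOM, PRDM12 had a log2 fold change of 0.09 and did not pass.

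In the list of 26 stem and progenitor transcription factors, 4 were tested and none passed. HOXB4, a homeobox factor of stem cell expansion, had 4, 7 and 1 reads against 7, 12 and 8, with a log2 fold change of 1.31 (SE 0.56, adjusted p = 0.0834 by limma). IKZF2 and KLF2 were at 0.10 and -0.14. The levels of others in the list were high, with means of 23329 normalized reads for MYB, 23361 for GFI1, 6053 for HOXA9 and 4284 for MEIS1, all of them factors of immature myeloid cells. The relatives of HLF with PAR bZIP domains, DBP and TEF, and the related NFIL3 had means of 627, 450 and 649 and were not compared.

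**Figure D4:**
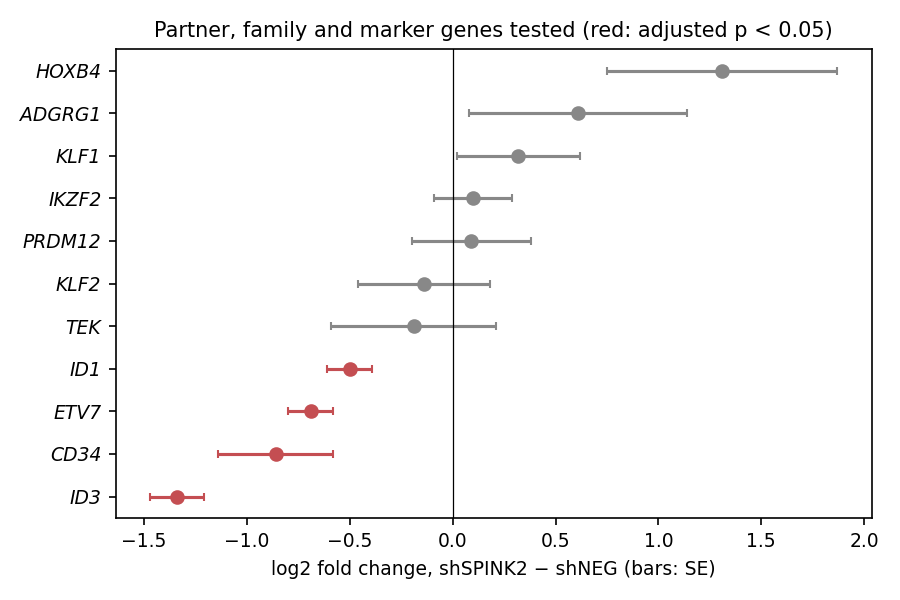
Log2 fold change of shSPINK2 minus shNEG with its SE for the tested genes of the 6 lists that are named in the text, SPINK2 left out, with genes at an adjusted p under 0.05 in red. ID3, CD34, ETV7 and ID1 lie below 0 from -1.34 to -0.50, and the genes in grey did not pass.

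The genes whose normalized reads followed MECOM most closely over the 6 libraries were DCST1-AS1 (Pearson r = 0.998), SUMO2P17 (0.995) and AC020928.1 (0.994). DCST1-AS1 had 101, 123 and 109 reads in A, B and C and 58, 60 and 51 in D, E and F. Library B was the highest for it, as it was for MECOM. These coefficients cover 6 libraries in 2 groups and describe the group difference above all, and SPINK2 itself stood at 0.994 and ZFPM1 at 0.920. SUMO2P17 is a pseudogene and DCST1-AS1 an antisense gene, so their reads may belong in part to other genes.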

How the data were processed

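RNA of FUJIOKA cells was measured in 3 shNEG and 3 shSPINK2 libraries. The authors aligned paired reads of 150 bases to GRCh38 with STAR (2.7.11 in the submitters' processing notes), obtained gene counts from featureCounts and ran DESeq2 (1.40.0 in these notes) between the groups. Annotation release and strand setting are not given in the sources used here. The deposited table gives for each gene a signal, the mean over 6 libraries of reads that the authors divided by DESeq2 size factors. It also holds the authors' log2 fold change, its error and p-values, which were neither printed nor compared. The means sum to 38425214 reads per library.

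Reads per library were recovered from the mean alone. Genes with 1 read in 1 library give the 6 size factors, and whole numbers were then sought whose weighted sum is the mean to 15 digits. The sign of the authors' log2 fold change in those single-read genes, with the direction taken as shSPINK2 against shNEG, was the only key to each recovered library's group. Recovery gave 7566 of 7623 genes with a mean of 5 to 200 (99.3%). Above a mean of 100, 1 combination with an even spread within groups was required. HLF, ZFPM1, ID1, ID3, ETV7, CD79A and GP1BA were recovered in this way, so their values lean on that requirement.

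Normalized reads plus 0.5 were compared on the log2 scale with limma 3.58.1 (trend, R 4.3.3) and Benjamini-Hochberg adjustment over all genes with a mean of 5 to 200, calling an adjusted p under 0.05. Recovery and test were tried on simulated data. Recovery there covered means of 5 to 100 only, so the even-spread requirement used above a mean of 100 was not tested. When deposited means were moved off their value, whole reads were still found for 0 of 300 moved means at 10 to 35. They were found for 29 of 300 at 35 to 100 and for 32 of 300 at 160 to 200. Gene positions came from GENCODE 44 by Ensembl ID (91% of 63191 IDs matched). The genes named by rule were the members, SPINK2, called genes and extremes of each list, and the 3 genes most correlated with MECOM. Other list and marker genes were picked after their values were seen, and some tested list and marker genes are not reported here. The members and lists were chosen with earlier results of these data known.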

Additional observations from a re-analysis of the deposited data

How the results depend on the processing

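No paired analysis was possible because the recovered libraries carry no replicate numbers. Over 13 alternatives of the fit, 9 named genes gave 112 values, of which 105 kept direction and side of the threshold, 6 (HLF and CD34, with 1 library left out) lost the call, 1 (ERG, means of at least 10) gained it, and none reversed. With means below 100 only, an alternative chosen after seeing the data, 543 genes were higher and 500 lower in place of 893 and 773, members called were 0 higher and 1 lower, and list genes lower were 2. HLF, ZFPM1, ID1, ID3 and ETV7 have means above 100 and were not in that fit, so they did not lose a call there. With an absolute log2 fold change over 1 as well, the counts were 271 higher and 265 lower, members 0 and 1, and list genes lower 2. With a mean of at least 10, 2 members were higher. Leaving out 1 library at a time gave 646 to 795 genes higher and 578 to 714 lower, members higher 0 to 1 (0 without B, D or E), members lower 2 throughout, and list genes higher 0 to 1 (1 without B). Centring on the median shifted fold changes by -0.05 and moved the share of called genes that were higher from 53.6% to 45.7%. Reads of MECOM in shSPINK2 and of TAL1 are few, so depth limits their folds. No reads were recovered above a mean of 200.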

Other observations

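Markers of several blood lineages moved in both directions. CD79A, a B cell receptor subunit, had 143, 151 and 146 reads in A, B and C and 201, 214 and 251 in D, E and F, with a log2 fold change of 0.58 (SE 0.10, adjusted p = 2.01e-05 by limma). Its reads were recovered by the rule that favours like replicates. The platelet tubulin TUBB1 had 33, 54 and 59 reads against 44, 26 and 23, so the groups overlapped, and a log2 fold change of -0.67 (SE 0.23, adjusted p = 0.0308 by limma). GP1BA and ITGA2B, platelet receptor subunits, were at 0.18 and 0.46 and did not pass. FCN1, the 1 monocyte marker tested, was at -0.42 and did not pass. Of the 6 monocyte markers, 4 were abundant in this line and not compared, with means of 44097 for LYZ and 21578 for S100A9. CD14 had a mean of 2.83. The part of these cell programmes in the changes of MECOM and its partners was not tested.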
